A study of Mus musculus with 6 samples.

Results

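The interleukin-1 (IL-1) family genes examined here are 9 genes for ligands, receptors and soluble inhibitors, taken by symbol from the 27507 gene identifiers of the deposited table: Il1a, Il1b, Il33, Il18, Il1rn, Il18bp, Il1r1, Il1rap and Il1rl1. They were measured by RNA-seq of poly(A) RNA in L929, an established mouse fibroblast line, in 3 control samples (genotype label WT) and 3 samples with a knockout of STING, labelled STING KO. No treatment, time point or knockout method is named for either group, and whether the knockout cells are 1 clone is not given in the sources used here. STING is the adaptor that carries the signal of cytosolic DNA to TBK1, IRF3 and NF-kB, and the series compares transcript levels with and without it. Values are normalized counts, that is, gene counts that the authors divided by a size factor of each sample.

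IL-1 family cytokines are among the earliest signals of tissue damage. IL-1α and IL-33 are alarmins, held inside cells and released when cells die, whereas IL-1β and IL-18 are made as precursors that caspase-1 cuts in the inflammasome. Each ligand binds its own receptor chain, IL-1R1 for IL-1, ST2 for IL-33 and IL-18R1 for IL-18, and a second chain then joins (IL-1RAcP, shared by IL-1 and IL-33, or IL-18RAP). The paired chains recruit MyD88 and IRAK kinases and activate NF-kB, which in fibroblasts turns on chemokine and cytokine genes. Several ligand genes of the family are themselves NF-kB targets.

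Of the 9 genes, Il33 was the 1 member whose control and STING KO libraries did not overlap, and it was lower in STING KO at a very low level. Among the 18969 genes above 0 in any library, 5.13% did not overlap with STING KO lower and 4.57% with STING KO higher. Il1r1, Il1rap, Il18 and Il18bp were expressed in every library, and their groups overlapped. Il1a, Il1rl1 and Il1rn were at or near the limit of detection and Il1b was at 0 in every library. None of the members passed the test over all genes (0 of the 4 that could be tested, where limma called 0.258% of the 12408 genes tested lower in STING KO and 0% higher).

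The start regions of Il33 are shown because Il33 is the member whose groups stood apart, and that of the second Il1r1 start because it alone among the member windows holds a match to the kappaB consensus, the stricter of 2 NF-kB motifs searched. The RefSeq promoter table (GRCm38.p6) matched all 9 members with 14 windows, each from 250 bases before to 50 after a transcription start. Capitals mark TATAAA in Il33 and the kappaB consensus in Il1r1. The windows are chr19:29924863-29925162 (plus strand) and chr19:29945540-29945839 (plus strand) for Il33, and chr1:40266336-40266635 (plus strand) for Il1r1.
Il33, first start: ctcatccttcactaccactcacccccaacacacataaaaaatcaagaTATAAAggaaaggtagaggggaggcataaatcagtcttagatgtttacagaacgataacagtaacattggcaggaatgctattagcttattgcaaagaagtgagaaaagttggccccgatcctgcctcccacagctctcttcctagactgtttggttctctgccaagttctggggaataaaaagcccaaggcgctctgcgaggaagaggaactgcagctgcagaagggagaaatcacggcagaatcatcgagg
Il33, second start: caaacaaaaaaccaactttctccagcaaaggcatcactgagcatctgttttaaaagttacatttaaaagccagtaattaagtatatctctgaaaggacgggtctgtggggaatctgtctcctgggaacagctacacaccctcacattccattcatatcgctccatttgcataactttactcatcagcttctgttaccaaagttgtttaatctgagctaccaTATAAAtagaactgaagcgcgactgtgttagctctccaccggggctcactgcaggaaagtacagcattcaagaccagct
Il1r1, second start: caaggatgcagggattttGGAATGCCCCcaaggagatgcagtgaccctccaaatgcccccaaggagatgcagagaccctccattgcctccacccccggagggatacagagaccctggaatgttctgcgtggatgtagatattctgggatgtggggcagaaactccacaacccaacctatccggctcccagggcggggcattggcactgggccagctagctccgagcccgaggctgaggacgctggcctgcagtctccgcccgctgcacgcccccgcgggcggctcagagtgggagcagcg

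Both strands of the 14 windows were searched for the kappaB consensus, for a looser kappaB form that fixes only the outer bases, for the AP-1 motif TGANTCA and for TATAAA. In Il33, TATAAA began at position -29 relative to the second start and at -203 relative to the first, and neither Il33 window held any of the other 3 motifs. The kappaB consensus occurred in 1 of the 14 windows, at position -232 relative to the second Il1r1 start, on the minus strand. It occurred in 4.51% of the 32851 windows of this length in the table. The looser form occurred in 5 of the 14 windows, those of Il1rn, Il1rap and the second Il1r1 start, and in 50.8% of all windows. Its matches overlapped the kappaB match in Il1r1 and one another in Il1rap, and no other matches overlapped within a window. Windows 2 and 3 of Il1rn share bases (chr2:24345041-24345340 and chr2:24345121-24345420). Their looser matches, GGGTTTTTCC at positions 30 and -51, are the same site, which is thus counted in both windows. TGANTCA was found in 2 windows, at -12 relative to the start of Il1a and at -141 relative to the first start of Il1rn, against 7.81% of all windows. TATAAA occurred in 6 of the member windows and in 13.6% of all windows. The deposited values are per gene, so they do not tell which start was used, and a match is a match of letters only.

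The sample totals ran from 14382072 to 14526606 normalized counts. With the smallest nonzero value of each sample taken as 1 count, they were 14445540 to 14582221, so depth was nearly equal. Sting1, listed under its older symbol Tmem173, was at 329, 313 and 311 in the control libraries and at 82.1, 80.6 and 93.4 in those labelled STING KO, lower in every one. All 12 fibroblast markers were above 0 in at least 1 library, among them Col1a1, a chain of type I collagen, at 10264 to 12691 normalized counts. The sum of the 12 markers ran from 190142 to 202244 in control and from 203679 to 217604 in STING KO, without overlap. Dcn and Lum, small collagen-binding proteoglycans, were at 0 in some libraries. They were highest in control replicate 3 (94.4 and 31.8) and STING KO replicate 1 (32.7 and 11.9). The same libraries were also richest in hepatocyte transcripts. Their 14 hepatocyte markers summed to 5988 and 5604 normalized counts, against 267 to 724 in the other 4 libraries. The labels do not say whether replicates came from separate cultures, so the p-values reflect only how far these samples vary, which may be technical. In bulk RNA, fewer cells expressing a gene and less RNA per cell cannot be told apart.

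The ligand genes came first by role. Il33 encodes the nuclear alarmin IL-33, a cytokine that fibroblasts, endothelium and epithelium store in the nucleus (ENSMUSG00000024810, protein coding, chromosome 19, 29925114 to 29960718, plus strand, GRCm38). It was at 23.0, 16.0 and 8.94 normalized counts in control replicates 1, 2 and 3. In STING KO it was at 3.96, 1.99 and 3.01. Every STING KO library was thus below every control library, and the control libraries themselves were spread widely.

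The Il33 means were 16.0 ± 7.01 in control against 2.99 ± 0.984 in the knockout (SD, n = 3 each), so 18.7% of the control level was left. In sum over the libraries, 48 counts stood against 9, a ratio of 5.33 with an exact 95% interval of 2.59 to 12.4 that covers counting error only. Only 2 libraries reached 10 normalized counts, so Il33 was under the minimum for the test (at least 10 in at least 3 samples). Fitted by limma with no minimum over 18969 genes, it had a log2 fold change of -2.33 (SE 0.50, 95% interval -3.47 to -1.18) on the log2(value + 0.1) scale. The unadjusted p was 0.00141 and the adjusted p 0.432, so Il33 did not pass, in a fit that called 0.137% of genes lower and 0% higher. In the authors' deposited table its log2 fold change is -2.42 with an adjusted p of 0.42, and 0.251% of the genes with an adjusted p there pass as lower and 0.043% as higher.

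Groups that do not overlap are common in these data, which sets the scale for Il33. Of the 18969 genes above 0 in any library, 5.13% had every STING KO library below every control library and 4.57% had the reverse. Among the 12408 tested genes these shares were 6.32% and 5.76%. At the level of Il33, a mean of 5 to 20 normalized counts, they were 4.59% and 4.71% of 1635 genes. Only 2 of these 1635 genes (0.122%) also had a control mean at least 4 times the STING KO mean. They were Csf3, the granulocyte growth factor gene, and Il33. This window and fold were chosen after the values of Il33 were seen, and genes higher in STING KO were not counted at this fold. The small count is thus no independent evidence for Il33.

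Within control, Il33 was lowest in replicate 3, which holds hepatocyte transcripts. Without that library and STING KO replicate 1, its STING KO level was 12.9% of control. Of the endothelial markers, 6 of 6 genes were above 0 in at least 1 library. Their sum, mostly Vwf, ran from 80.8 to 92.8 normalized counts in control and from 95.6 to 97.0 in STING KO, without overlap. The endothelial junction gene Cdh5 was near the limit of detection, at 0.998 to 4.97 in control against 0 to 1.98 in STING KO. Tek was at 3.97 to 11.0 in control against at most 8.91 in STING KO. Cdh5 and Tek had lower means in STING KO, whereas Pecam1, Kdr, Tie1 and Vwf had higher means there. The groups overlapped for each of these genes. Epithelial markers had 5 of 6 genes above 0, with Krt5 at 0, and their sums overlapped (440.3 to 509 and 496 to 604). Krt8, most of that sum, did not overlap, at 413 to 470 in control against 477 to 547 in STING KO. Of all genes tested, 5.76% did not overlap with STING KO higher. The part of other cell types in the Il33 values was not tested.

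**Figure D1:**
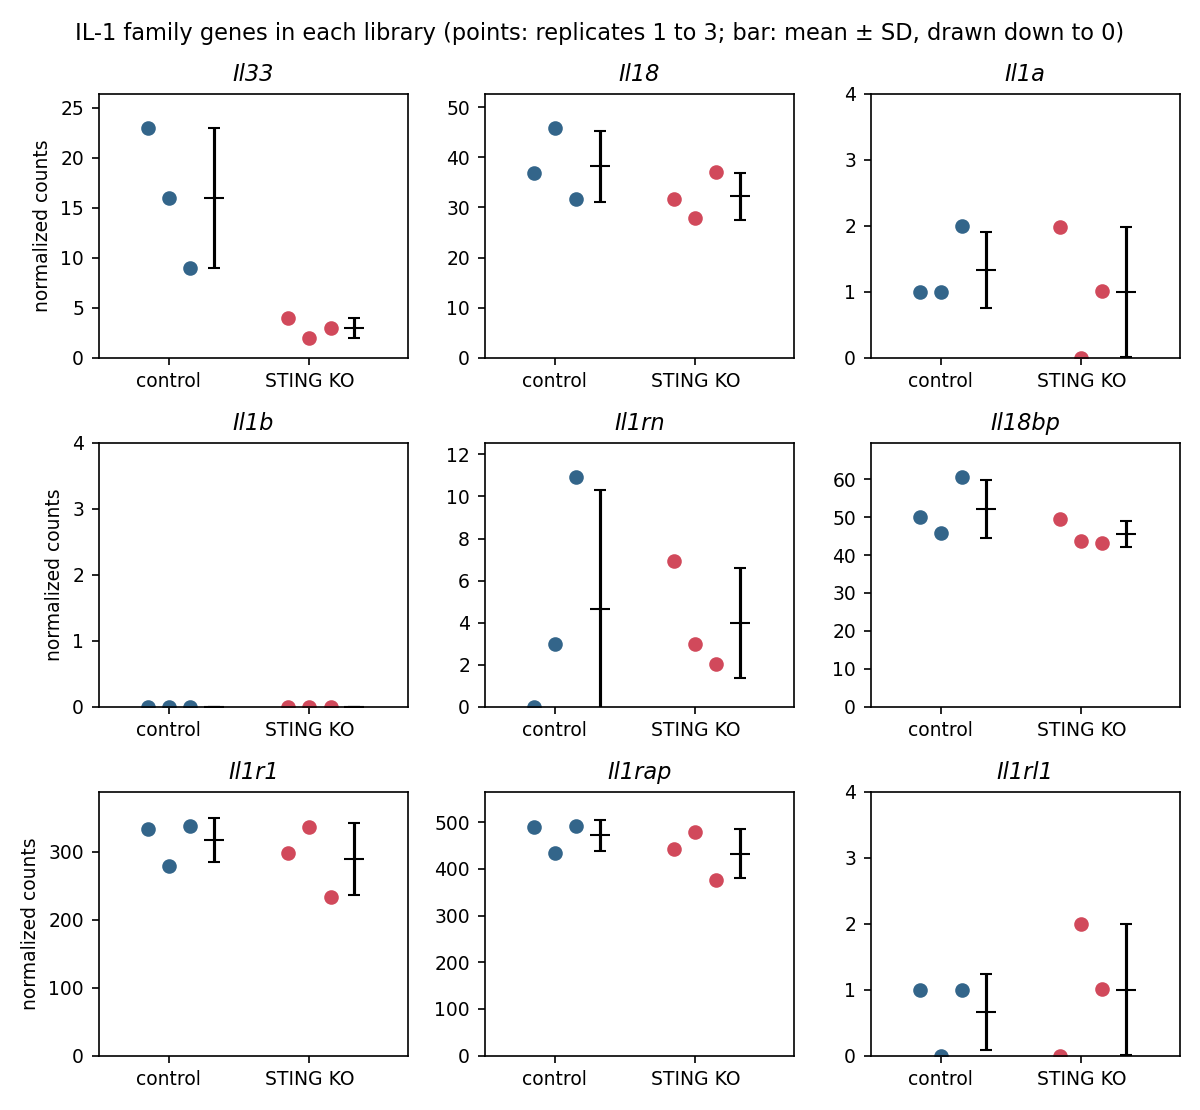
Normalized counts of the 9 IL-1 family genes in each library, control in blue and STING KO in red, with the mean and SD of each group as a black bar. The 3 STING KO points of Il33 (1.99 to 3.96) lie below its control points (8.94 to 23.0), while the groups of the other members overlap.

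Il18 encodes IL-18, a cytokine that drives interferon gamma production in lymphocytes (ENSMUSG00000039217, chromosome 9, 50554827 to 50581840, plus strand). The control libraries held 36.9, 45.9 and 31.8 normalized counts of it, and the STING KO libraries 31.7, 27.9 and 37.2. The groups overlapped, with STING KO replicate 3 above control replicates 1 and 3. The log2 fold change was -0.24 (SE 0.20, 95% interval -0.69 to 0.22, limma adjusted p = 0.752).

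The classical IL-1 ligand genes were barely detected. Il1a, which encodes the alarmin IL-1α (ENSMUSG00000027399, chromosome 2, 129299610 to 129309972, minus strand), had 0 to 1.99 normalized counts per library, 4 counts in control and 3 in STING KO in sum. Il1b, which encodes IL-1β (ENSMUSG00000027398, chromosome 2, 129364570 to 129371139, minus strand), was at 0 in all 6 libraries. A count of 0 allows up to 3 counts in a library, or 0.207 to 0.209 CPM (counts scaled to the total of the library), and up to 0.0346 CPM over the 6 libraries together. A difference between the groups was therefore not detectable at this depth in either gene.

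The genes of the soluble inhibitors had unlike levels. Il1rn encodes the IL-1 receptor antagonist, which occupies IL-1R1 without signalling (ENSMUSG00000026981, chromosome 2, 24336853 to 24351494, plus strand). Its normalized counts were 0, 2.99 and 10.9 in the control libraries and 6.93, 2.99 and 2.01 in the STING KO libraries. In both groups the highest library was the one with hepatocyte transcripts, and the other 4 libraries held 0 to 2.99. In sum, 14 counts in control stood against 12, a ratio of 1.17 with an exact 95% interval of 0.501 to 2.76 that covers counting error only. The STING KO mean was 85.7% of the control mean, but it was 266% with control replicate 3 left out and 107% with replicate 3 of STING KO left out. On the log2(value + 0.1) scale the limma fit with no minimum gave Il1rn a positive log2 fold change of 1.25 (95% interval -2.25 to 4.75, adjusted p = 0.791), so its direction is not settled.

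Of the 10 macrophage and leukocyte markers, 7 were higher in both of those libraries than in any other, and Cd68, Cd14 and Ptprc were not. Lyz2, the lysozyme gene of macrophages, had 97.4 and 71.3 normalized counts there against 16.0 to 22.1 in the others. Tyrobp, an adaptor of myeloid receptors, had 8.94 and 6.93 there against 0 to 2.01. Adgre1, Itgam and Clec4f, also among the 7, had at most 4.97 in any library. How many of all genes share this pattern was not counted. All 10 markers were above 0 in at least 1 library, and 4 of them were at 0 in at least 1 library. They summed to 772 to 910 in control and 824 to 976 in STING KO, mostly Cd68. Their part and that of the hepatocyte transcripts in the Il1rn values was not tested.

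**Figure D2:**
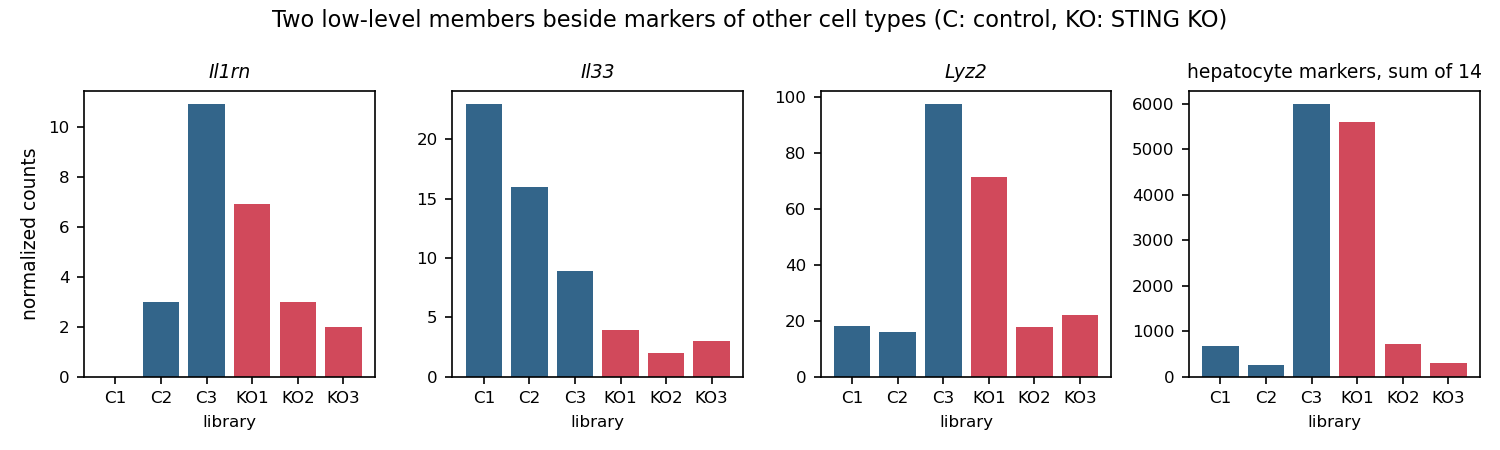
Normalized counts of Il1rn, Il33, the macrophage gene Lyz2 and the sum of 14 hepatocyte markers in each library (C, control; KO, STING KO; bars start at 0). Il1rn, Lyz2 and the hepatocyte sum peak in replicate 3 of control and replicate 1 of STING KO, while Il33 is highest in control replicate 1.

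Il18bp encodes the IL-18 binding protein, a secreted decoy that neutralizes IL-18 (ENSMUSG00000070427, chromosome 7, 102014885 to 102018690, minus strand). Its values were 49.9, 45.9 and 60.6 in the control libraries and 49.5, 43.8 and 43.2 in the STING KO libraries. The lower STING KO libraries lay just under the lowest control library, and STING KO replicate 1 lay within the control range. The log2 fold change was -0.19 (SE 0.16, 95% interval -0.55 to 0.17, limma adjusted p = 0.752). Exons of Il18bp overlap those of Numa1, a mitotic spindle gene on the opposite strand. Numa1 was far more abundant, at 2923 to 3072 normalized counts, and since the strand setting is not given, reads of the pair may be shared.

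Both chains of the IL-1 receptor were expressed, while the receptor chains of IL-33 and IL-18 that bind ligand were near or at 0. Il1r1 encodes the signalling IL-1 receptor chain (ENSMUSG00000026072, chromosome 1, 40225080 to 40317257, plus strand). Normalized counts were 333, 279 and 338 for the control libraries and 298, 337 and 233 for those of STING KO. The STING KO range enclosed all but the highest control library, and the lowest value was that of STING KO replicate 3. The log2 fold change was -0.14 (SE 0.13, 95% interval -0.44 to 0.16, limma adjusted p = 0.771).

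Il1rap encodes IL-1RAcP, the accessory chain that IL-1R1 and ST2 share (ENSMUSG00000022514, chromosome 16, 26581704 to 26730117, plus strand). Control libraries 1 to 3 held 489, 434 and 492 normalized counts, and STING KO libraries 1 to 3 held 441, 480 and 377. STING KO replicate 3 was again lowest, and the other STING KO libraries lay within the control range. The log2 fold change was -0.13 (SE 0.10, 95% interval -0.35 to 0.09, limma adjusted p = 0.744). Exons of Il1rap overlap an antisense transcript, Gm20319, so its reads may be shared in part.

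Il1rl1 encodes ST2, the IL-33 receptor of mast cells and type 2 lymphocytes, and also its soluble decoy form, which a gene count cannot separate (ENSMUSG00000026069, chromosome 1, 40429570 to 40465415, plus strand). It had 0 to 1.99 normalized counts per library, 2 counts in control and 3 in STING KO in sum, so no difference was detectable at this depth. Of 6 mast cell and type 2 lymphoid markers, Mcpt4 was at 0 in every library and the mast cell protease gene Cpa3 at 0 to 1.99. The sum of these markers, almost all of it Gata3, was 175 to 209 in control and 175 to 203 in STING KO.

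The 4 tested members, Il1r1, Il1rap, Il18 and Il18bp, had at least 10 normalized counts in all 6 libraries. None of the 4 was called by limma at an adjusted p at or under 0.05, and 0 had an unadjusted p at or under 0.05, as 6.37% of all genes tested did. Limma-voom also called 0 of them, where it called 0.234% of all tested genes lower and 0% higher, and the authors' deposited table has 0 of them past its adjusted threshold. All 4 log2 fold changes were negative, with a median of -0.17, against -0.00 over all genes tested. Their 95% intervals allow a level in STING KO of 0.735 to 1.12 times that in control for Il1r1, 0.786 to 1.06 for Il1rap, 0.619 to 1.16 for Il18 and 0.684 to 1.13 for Il18bp.

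Compared per transcript length, the accessory chain led the family. Il1rap stood at 7.22 ± 0.530 CPM per kb of its longest transcript in control against 6.63 ± 0.832 in the knockout (SD, n = 3 each). Il1r1 followed at 3.77 ± 0.403 and 3.44 ± 0.639 CPM per kb, and Il18 at 2.99 ± 0.544 and 2.52 ± 0.352 (SD, n = 3 each). The libraries of Il1r1 and Il18 overlapped, so their order is not settled, whereas every library of Il1rap lay above them.

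Il18bp came next in the order, at 1.39 ± 0.208 CPM per kb in control against 1.21 ± 0.0944 in the knockout (SD, n = 3 each), below every library of Il18. Il33 stood at 0.434 ± 0.191 and 0.0813 ± 0.0267 CPM per kb (SD, n = 3 each). Every library of Il33 lay below every library of Il18bp, and its lowest control library and its STING KO libraries lay in the range of Il1rn. Il1rn, Il1a and Il1rl1 overlapped their neighbours in the order, and Il1b was last at 0. The longest annotated transcript was taken for each gene, and the transcripts in use were not measured.

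**Figure D3:**
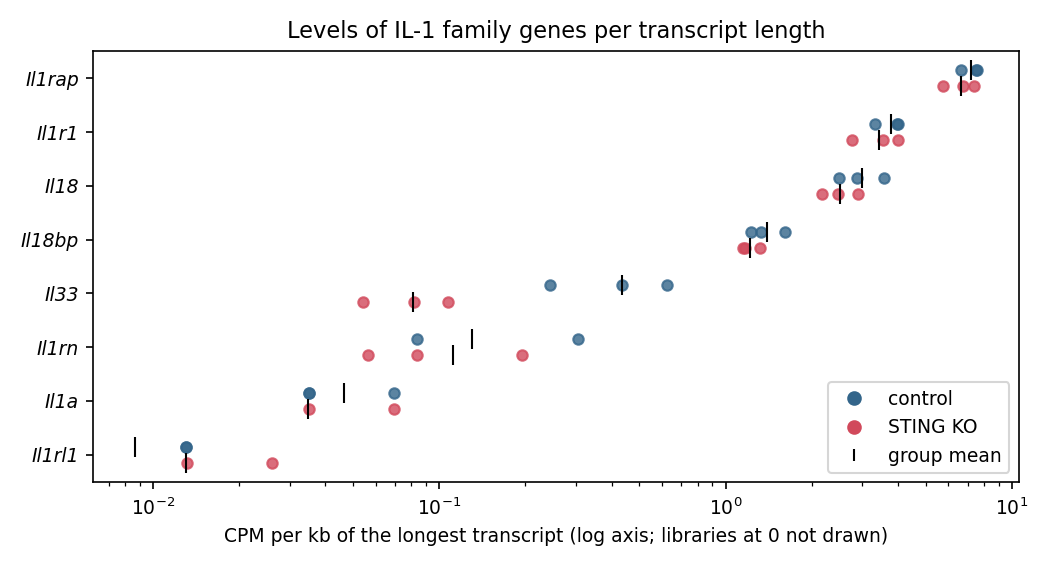
Level of each detected member in CPM per kb of its longest transcript on a log axis, control in blue and STING KO in red, with the group mean as a black tick; libraries at 0 are not drawn. Il1rap, Il1r1, Il18 and Il18bp are the upper 4, above the highest library of Il33 at 0.626 CPM per kb. The lowest control library of Il33 and its STING KO libraries lie below the highest Il1rn library, at 0.307 CPM per kb.

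Il1r1 and Il1rl1 stand in a cluster of 6 receptor genes on chromosome 1, where only some were expressed, while Il1rap is on chromosome 16. From 40074079 to 40551705, a span of 478 kb, the annotation orders the cluster as Il1r2, Il1r1, Il1rl2, Il1rl1, Il18r1 and Il18rap. The Il1r1 means were 317 in the control group and 289 in STING KO. Its direct neighbours Il1r2, the decoy receptor, and Il1rl2, the IL-36 receptor, had group means of 0 to 2.66. Il18r1, the chain that binds IL-18, was at 0 in every library. Il18rap, its accessory chain at the end of the cluster, was at 17.0 to 38.7 normalized counts.

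Among themselves, the tested members fell into unlike patterns over the 6 libraries. The likeness of a pair of genes was measured as the root mean square difference of their log2 values, each centred on its control mean, over the 6 samples. Il1r1 and Il1rap differed by 0.06, which placed Il1rap 212th of 11834 other tested protein-coding genes in nearness to Il1r1. In the other direction, Il1r1 was 753rd in nearness to Il1rap. Il18 and Il18bp, the cytokine and its decoy, differed by 0.31, which placed Il18bp 7964th in nearness to Il18. In turn Il18 was 9835th in nearness to Il18bp. Il1r1 and Il1rap shared the low value in STING KO replicate 3, at -0.44 and -0.32 relative to their control means, and the dip in control replicate 2, at -0.18 and -0.12.

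The genes nearest to Il1r1 were Togaram1, Hook3, a dynein adaptor, and Hif1a, the oxygen-regulated transcription factor, at differences of 0.02 each. Those nearest to Il1rap were Pdgfra, a growth factor receptor of fibroblasts, at 0.01 and Crebzf and Ppp3cb at 0.02. Il18 was nearest to Scrn1, Angpt4 and Rundc3a (0.07, 0.08 and 0.08) and Il18bp to Fzd5, a Wnt receptor gene, Cth and Sprtn (0.05, 0.05 and 0.06). With low values such as those of Il18 the profile is mostly spread between libraries, and this likeness is a description over 6 samples only.

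**Figure D4:**
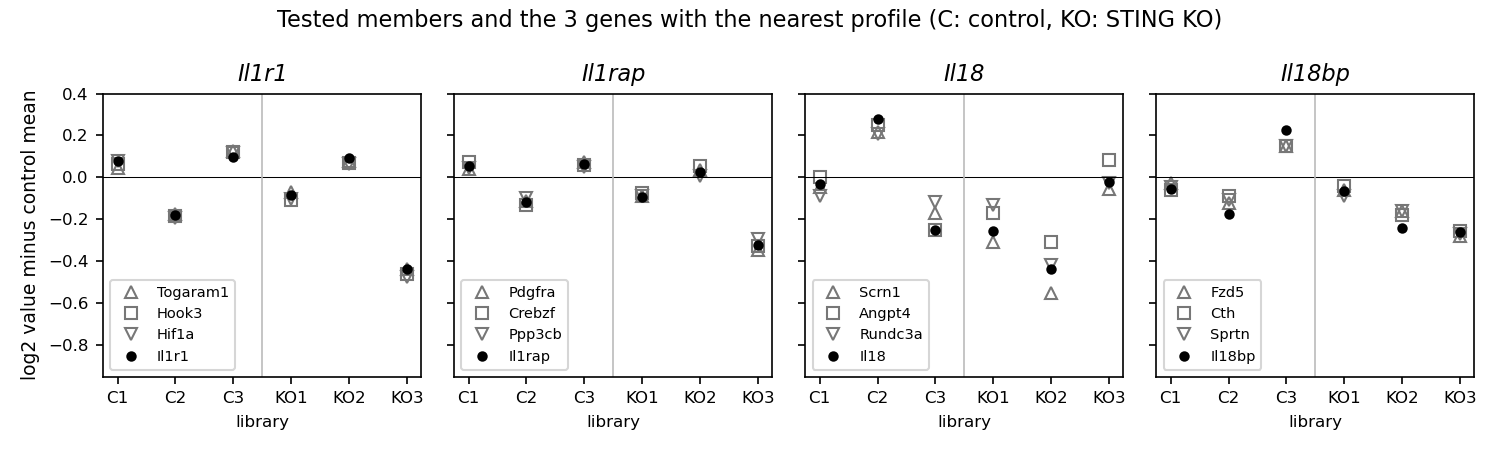
Log2 value minus the control mean in each library (C, control; KO, STING KO) for each tested member, as black points, and for the 3 genes of nearest profile, as open symbols. Il1r1 and Il1rap and their nearest genes are lowest in STING KO replicate 3, while Il18 is lowest in STING KO replicate 2.

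The remaining ligand genes of the family were at or near 0. Of 5 genes, Il36a, Il36b, Il36rn and Il1f10 were at 0 in every library, and Il36g, listed under the older symbol Il1f9, had 0 in control and about 1 count in each STING KO library. Of the 7 other receptor family genes, 2 were above the minimum and limma called 0 of them, with 0 at an unadjusted p at or under 0.05 and 0 called by limma-voom or in the authors' deposited table. Sigirr, an inhibitory receptor of the family, had 151 ± 26.3 normalized counts in the control group against 165 ± 20.7 in the knockout (SD, n = 3 each). Il18rap was at 29.5 ± 11.3 and 26.2 ± 4.41 (SD, n = 3 each; limma adjusted p of 0.795 for Sigirr and 0.926 for Il18rap).

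The machinery that processes IL-1β and IL-18 was present in part. Of 19 such genes, 10 were above the minimum, and limma called 0 of them, as did limma-voom and the authors' deposited table, with 2 at an unadjusted p at or under 0.05, as were 6.37% of all genes tested. Those were Casp4, which encodes the lipopolysaccharide-sensing caspase-11, at 3132 ± 153 in control against 2775 ± 147 in the knockout, and Casp1, the converting enzyme, at 400.3 ± 9.48 and 446 ± 12.6 (SD, n = 3 each). Their log2 fold changes were -0.18 (adjusted p = 0.728) and 0.16 (adjusted p = 0.738) by limma. Aim2, a cytosolic DNA sensor of the inflammasome, was at 746 to 803 normalized counts. In contrast Pycard, the adaptor ASC that links sensors to caspase-1, had 0.993 to 2.97 counts and Nlrp3, the sensor of many danger signals, had 0 to 5.97.

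The signalling chain from receptor to NF-kB was expressed throughout, with 25 of 25 listed genes above the minimum. Limma called 0 of them, as did limma-voom and the authors' deposited table, and 4 were at an unadjusted p at or under 0.05, as were 6.37% of all genes tested. Of the 25 log2 fold changes 18 were negative, with a median of -0.06, and 24 of the 25 had a 95% interval within 2-fold. The smallest p belonged to Nfkb1, the p105 subunit gene of NF-kB, at 2033 ± 133 in control against 1731 ± 17.2 in the knockout (SD, n = 3 each, adjusted p = 0.428 by limma). Irak3, an inhibitor of IRAK signalling, had 561 ± 18.5 against 455 ± 45.7 (SD, n = 3 each, adjusted p = 0.479 by limma). The groups did not overlap for Irak3, Nfkb1, Irak1, Ube2n and Map3k8, lower in STING KO, and for Ube2v1, higher. Of all genes tested, 6.32% did not overlap with STING KO lower and 5.76% with STING KO higher. Myd88, the adaptor that the paired receptor chains recruit, was at 929 ± 48.9 and 870 ± 14.9 (SD, n = 3 each).

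Some of the genes that fibroblasts turn on in response to IL-1 were lower in STING KO. Their list was drawn up with earlier results of these samples known and is no independent evidence. Of 32 genes, 24 were above the minimum, and limma called 11 lower, 0 higher and 13 not. Over all 12408 genes tested, it called 0.258% lower and 0% higher. The 24 genes had a median log2 fold change of -0.73, against -0.00 over all genes tested. The called genes were Il6, Cxcl1, Ccl2, Ccl7, Csf3, Nfkbia, Nfkbiz, Zc3h12a, Cebpd, Relb and Nfkb2, most of which are targets of many NF-kB stimuli. Il6 had 62.9, 51.9 and 57.6 normalized counts in the control libraries against 12.9, 11.0 and 11.0 in the knockout. Il6 thus fell with a log2 fold change of -2.30 (limma adjusted p = 0.000873), whereas no tested IL-1 family gene passed. Il33 was under the minimum and is not part of this contrast. Its log2 fold change was -2.33 in the limma fit with no minimum, where it did not pass (adjusted p = 0.432). Without the 2 libraries that hold hepatocyte transcripts, 10 genes of the list were called, against 13 called lower and 0 higher over all genes.

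**Figure D5:**
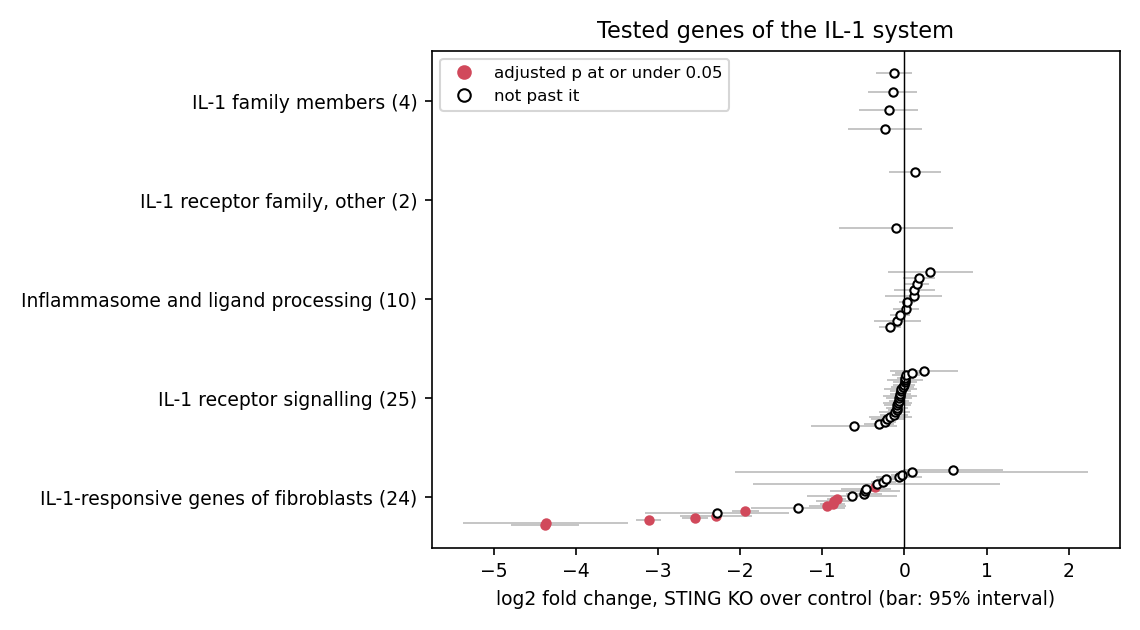
Log2 fold change, STING KO relative to control, for every tested gene of the IL-1 family and of the 4 lists around it, with 95% intervals as grey bars; the number of tested genes stands in brackets and filled red points are at an adjusted p at or under 0.05. The called points all lie in the list of IL-1-responsive genes. No tested family member and no signalling or processing gene is called, and Map3k8 lies furthest from 0 among them, at -0.62. Il33 (-2.33 in the fit with no minimum) was under the minimum and is not drawn.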

How the data were processed

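RNA-seq of poly(A) RNA from 3 control and 3 STING KO samples of L929 cells was taken from the gene table that the authors deposited. The columns of the samples hold a signal, gene counts that the authors divided by a size factor of each sample: 100% of the nonzero entries of a column were whole multiples, within 0.01, of 1 step (0.990 to 1.00). Per the file headers, it also gives the authors' log2 fold change with its standard error, a test score (Wald), and the p-value before and after adjustment. The submitters' processing notes name DESeq2 1.4.5, RSEM 1.2.12, Bowtie2 2.2.5 and HISAT2 2.0.4 as tools, in no order, with GRCm38 and mm10 as builds. The sources used here do not give the annotation or the strand setting.

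The first row of each of the 27507 identifiers was used. GENCODE M21 (GRCm38) held 27480 of them and gave coordinates and lengths. Values were tested as log2(value + 0.1) with limma 3.58.1 (R 4.3.3), using its mean-variance trend, for genes with at least 10 in at least 3 samples, with Benjamini-Hochberg adjustment over all 12408 such genes and a threshold of 0.05. Count tools planned as alternatives were not run, and all fits used the normalized values.

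The members, lists, tests and alternatives were chosen with earlier results of these data known. Named were all 9 members, Sting1, and in each list the called genes, the 2 genes with the smallest p, and the 3 nearest profiles of each tested member. Other genes are named to describe a group and were chosen after their values were seen.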

Additional observations from a re-analysis of the deposited data

How the results depend on the processing

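The number of members called was 0 under all 15 alternatives run for it: TMM and upper-quartile scaling, no minimum, a minimum mean of 5 CPM, a pseudocount of 1, limma-voom, the replicate block, each library left out, both libraries with hepatocyte transcripts left out, and the authors' deposited table. The edgeR and DESeq2 fits planned were not run. Il33 kept a negative log2 fold change of -2.92 to -2.02 in every fit without a minimum and in the authors' table, with adjusted p of 0.234 to 0.84, the highest under the replicate block; the fits that combine no minimum with another change were added after seeing the data. Its remaining level was 15.4% to 24.0% of control when 1 library was left out. Il1r1 had a log2 fold change of -0.26 to 0.00, with the highest without STING KO replicate 3, and Il1rap of -0.21 to -0.03. Il1rn went from 85.7% of control to 266% without control replicate 3, and to 107% when replicate 3 of STING KO was left out.

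Over all genes, 32 were called lower and 0 higher, with 394 lower and 397 higher at an unadjusted p at or under 0.05. The replicate block left 18 lower. Deviations of same-numbered samples from their group means correlated at -0.183, -0.18 and -0.488. With 3 samples in each group such deviations are not independent, so these values cannot tell whether same-numbered samples were paired. Without both libraries that hold hepatocyte transcripts 13 were lower, and leaving out 1 library gave 21 (without control replicate 1) to 35 lower and 0 to 2 higher. The authors' table has 6 higher. The cause was not tested. Depth limits Il33, Il1rn, Il1a, Il1rl1 and Il1b, which lie at or under about 1 CPM.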
